A study of Homo sapiens with 28 samples.

Results

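Metallothioneins are small, cysteine-rich proteins of the cytosol and nucleus that bind zinc and copper and take up cadmium. Their genes are switched on by metal through MTF1, a zinc-sensing transcription factor that binds metal response elements next to the start of the gene, and the classic MT2A is also known as a target of glucocorticoids. In the prostate they are studied because normal secretory epithelium stores zinc, a property that is largely lost in prostate cancer. The members described here are the 6 rows of the deposited table whose gene symbol is MT1E, MT1F, MT1G, MT1M, MT1X or MT2A, out of 61815 gene rows. They were chosen by name and not by a measured value, but earlier results of these data were known at that choice.

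RNA was measured in LNCaP, an androgen-responsive human prostate cancer cell line. The cells of every group, vehicle included, had first spent 72 h in medium with charcoal-stripped serum, which holds little steroid hormone. In the 24 h experiment they then received vehicle (0.1% DMSO), Senexin B at 1 µM, R1881 at 0.1 nM, or R1881 and Senexin B together at the same doses, with 3 libraries per group. In the 72 h experiment they received vehicle (0.1% DMSO), SNX631 at 500 nM, R1881 at 1 nM, or R1881 and SNX631 together, with 4 libraries per group. R1881 is an androgen made synthetically, while CDK8 and CDK19, the paralogous kinases of the Mediator kinase module, are the targets of both inhibitors. Doses are those of the labels, and the text of the study gives another dose for Senexin B. Time, R1881 dose, inhibitor and the experiment itself differ between the experiments at once and cannot be told apart, so that effects of Senexin B and SNX631 are given side by side and are not compared. The line is a single cell line with the genotype labelled WT. The methods of the study call the replicates biological, while the labels do not say whether they were separate cultures. If they were not, p values measure the spread between these libraries, which may be technical.

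Library totals ran from 9846595 to 33809419 counts, the highest belonging to vehicle replicate 3 at 24 h, with 15248512 as the next highest total. The LNCaP markers KLK3, FOLH1, TMPRSS2, HOXB13, KRT8, KRT18 and SPDEF all passed the filter on low counts in both experiments, and KLK3, the androgen-driven gene of prostate-specific antigen, stood at 1.44 ± 0.29 CPM (counts scaled to library size, SD, n = 3) with vehicle and 110.4 ± 4.2 CPM with R1881 at 24 h. Of 8 markers of other cell types, KRT5 was at 0 in all 28 libraries and PTPRC, PECAM1, DCN and TP63 reached at most 3 counts. COL1A1, COL3A1 and VWF were counted in every library, with up to 828, 168 and 55 counts.

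The members lie together on the long arm of chromosome 16. In GENCODE 29 on GRCh38, MT2A (ENSG00000125148) spans chr16:56608199-56609497, MT1E (ENSG00000169715) chr16:56625475-56627112, MT1M (ENSG00000205364) chr16:56632233-56633986, MT1F (ENSG00000198417) chr16:56657694-56660698, and MT1X (ENSG00000187193) chr16:56682424-56684196, all on the plus strand. MT1G (ENSG00000125144) spans chr16:56666731-56668065 on the minus strand. All 6 are annotated as protein-coding. Counts over whole genes cannot tell exons or isoforms apart.

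The stretch before the start of a gene is shown for MT2A, the member with the most counts, and for MT1X, the member that rose with androgen, because metal response elements of this family are known from this position. RefSeq promoter records were used for MT2A and MT1X, the members matched by symbol (2 of 6), and the 250 bases that end just before the RefSeq start are printed 5′ to 3′ on the plus strand of GRCh38.p14. Capitals mark each match to the core of a metal response element, TGCACNC or TGCGCNC on either strand.
MT2A, chr16:56608334-56608583: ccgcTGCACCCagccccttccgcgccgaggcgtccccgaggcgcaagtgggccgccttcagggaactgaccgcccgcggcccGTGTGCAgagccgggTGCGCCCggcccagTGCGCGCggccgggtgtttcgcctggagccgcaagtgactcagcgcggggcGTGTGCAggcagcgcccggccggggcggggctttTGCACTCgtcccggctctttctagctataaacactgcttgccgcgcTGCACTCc
MT1X, chr16:56682220-56682469: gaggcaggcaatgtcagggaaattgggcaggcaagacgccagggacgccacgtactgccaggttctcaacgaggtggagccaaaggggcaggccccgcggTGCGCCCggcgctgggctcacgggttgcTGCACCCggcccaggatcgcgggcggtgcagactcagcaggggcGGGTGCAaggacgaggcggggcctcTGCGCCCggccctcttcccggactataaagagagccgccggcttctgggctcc

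The MT2A window held 7 such cores and the MT1X window 4. Of 35116 RefSeq promoter windows of the same length, 24.8% held at least 1 core, 0.37% held 4 or more and 0.0313% held 7 or more. The core nearest to the start of MT2A began 8 bases before it, and that of MT1X 53 bases before it. The 6-base core of the androgen response element, AGAACA on either strand, was in neither window and in 12.4% of all windows, and the inverted repeat of that core with 3 bases between was in neither and in 0.00285% of all. Each window held 2 GC boxes (GGGCGG, at least 2 in 24.3% of windows) and 1 TATA box (TATAAA, 10.7%), which began 29 bases before the start of MT2A and 30 before that of MT1X. The AP-1 letters TGACTCA occurred once in the MT2A window and not in that of MT1X, against 4.2% of all windows. All motifs were searched on both strands. In MT1X 1 core shares bases with a GC box, and no other core overlapped another motif. A match of letters is a description and not a measured site. The GENCODE 29 model begins upstream of the printed window for MT2A and within it for MT1X.

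Counts in the cluster came from few genes. Over all 28 libraries MT2A had 7422 rounded counts (56.74% of the counts of all metallothionein genes and pseudogenes in the cluster), MT1X 3058, MT1G 1337 and MT1F 999. These 4 members passed the filter in both experiments. MT1M was at 0 in all 28 libraries. MT1E had 3 rounded counts in all, in 2 libraries of the group with R1881 and SNX631, and its highest deposited value in any library was 2. A count of 0 allows up to 3 counts, which is 0.0853 CPM in the deepest library and 0.314 CPM in the shallowest (counting error only), so levels of MT1E and MT1M below that were not detectable at this depth.
Of the 15 other metallothionein genes and pseudogenes in the table, 0 passed the filter in either experiment. MT1DP, a transcribed pseudogene, was counted in every library with 2 to 31 counts. MT3, known for its expression in brain, was counted in 24 libraries with at most 15. In the plot of counts along the cluster, MT2A stands apart from MT1F, MT1G and MT1X, and of the genes between MT2A and MT1F only MT1DP had more than 3 counts in all.

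**Figure D1:**
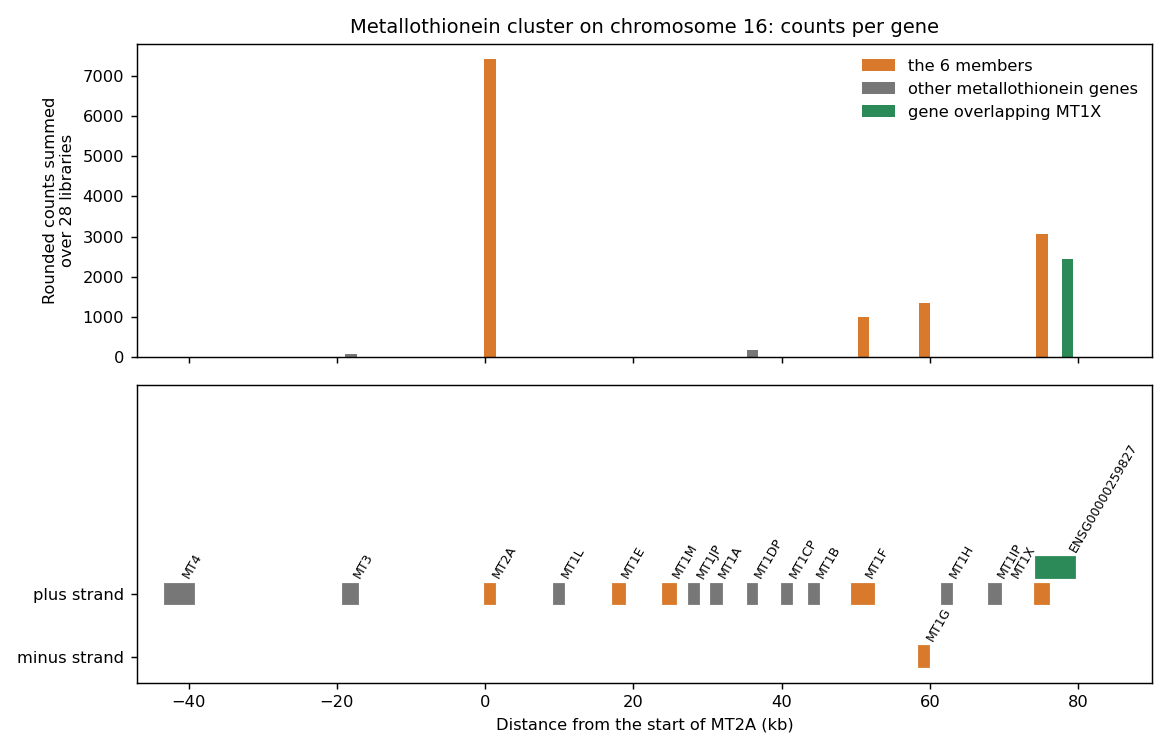
Rounded counts summed over 28 libraries (upper panel, y axis) for each gene of the cluster, and the gene positions by strand (lower panel), against distance from the start of MT2A in kb. Orange marks the 6 members, grey the other metallothionein genes, and green the gene that overlaps MT1X, whose bar is drawn slightly to the right of its place. MT2A reaches 7422 counts, while MT1M and most of its neighbours are at 0.

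One limit touches MT1X throughout. ENSG00000259827, a processed transcript on the same strand (chr16:56682470-56687807), overlaps it, and its counts were 0.733 to 0.877 of those of MT1X in every library. MT1X and this gene each had a fractional value in 17 libraries, both of them in 14. The difference of their deposited values was whole (within 0.02) in 21 of 28 libraries. Where both values are whole it must be, but it was also whole in 13 of the 17 libraries in which MT1X was fractional. Reads of the pair can therefore not be told apart, and the level of MT1X given here depends on how shared reads were counted. The log2 fold change with R1881 at 24 h was 0.93 ± 0.12 for ENSG00000259827 and 0.94 ± 0.11 for MT1X. Below, values for the counts of the pair added up are given where the FDR passes to the other side of 0.01 or moves close to it.

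Per kb of exon in GENCODE 29, MT2A also stood highest, at 13.3 ± 0.95 CPM per kb (SD, n = 3) with vehicle at 24 h, against 3.46 ± 0.73 for MT1G, 3.24 ± 0.24 for MT1X and 1.797 ± 0.23 for MT1F. MT1X had more counts than MT1G in this group, yet per kb their means differed by less than the SD of MT1G. With vehicle at 72 h the values per kb were 18.4 ± 1.8 for MT2A, 4.26 ± 0.65 for MT1G, 3.61 ± 0.24 for MT1X and 1.30 ± 0.15 for MT1F (SD, n = 4), in the same order. CPM was scaled within each experiment. The exon length used was 1299 bases for MT2A and 1773 for MT1X, as long as the whole annotated gene. For MT1G it was 750 bases in a gene of 1.335 kb. Values per kb, and the order of MT1G and MT1X, depend on these annotated lengths.

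Within an experiment the comparisons share libraries and are not independent of each other. The first comparison asked how the members respond to androgen alone. MT1X rose at 24 h and was the only member called: 1 of 4 tested, beside 19% of all 15948 genes tested, where a call means a false discovery rate (FDR) under 0.01 and a fold change over 1.5 in edgeR. MT1X encodes one of the inducible MT1 isoforms. Its level was 5.26, 6.07 and 5.89 CPM in the vehicle libraries and 11.3, 10.2 and 11.9 CPM with R1881 at 24 h. The lowest R1881 library thus stood well above the highest vehicle library. The log2 fold change was 0.94 ± 0.11 (SE, 1.92-fold, edgeR FDR 8.8e-09), and it ran from 0.896 to 1.01 when single libraries were left out.
MT1G, another inducible MT1 isoform, measured 1.97, 2.82 and 2.99 CPM with vehicle and 3.49, 3.26 and 4.24 CPM with R1881. These ranges did not overlap either, but the difference of 0.42 ± 0.19 on the log2 scale had an FDR of 0.0549 and was not called. MT2A gave 18.6, 16.9 and 16.2 CPM with vehicle and 15.2, 20.1 and 17.1 CPM with R1881, and the R1881 libraries reached both below and above the vehicle ones (log2 difference 0.05 ± 0.09, 95% interval -0.13 to 0.24). MT1F ranged from 3.01 to 3.88 CPM with vehicle and from 2.33 to 3.53 CPM with R1881 (log2 difference -0.24 ± 0.19, FDR 0.265). In all, 2 of 4 members had an unadjusted p under 0.05. The share of all genes under that looser limit is not given, here or below, so such counts have no comparison. The median log2 fold change of the 4 members was 0.234, beside -0.0156 over all genes tested.

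At 72 h and the higher dose of R1881, 0 of 4 members were called, beside 19.8% of 16074 genes tested, and DESeq2 also called 0 while 1 member had an unadjusted p under 0.05. That member was MT1X, which fell just short of the fold limit. Its libraries held 6.18, 5.95, 6.52 and 6.95 CPM with vehicle and 8.58, 9.62, 11.2 and 8.60 CPM with R1881, and the groups did not overlap. The log2 fold change was 0.57 ± 0.11 (1.49-fold, FDR 3.3e-05). Leaving out vehicle replicate 4, R1881 replicate 1 or R1881 replicate 4 put it past the limit, at 0.616, 0.613 and 0.622.
For MT2A the 4 libraries with R1881 (22.6 to 24.3 CPM) all lay within the range of the vehicle libraries (20.8 to 26.3 CPM). The differences of MT2A, MT1F and MT1G were -0.02 ± 0.06, 0.06 ± 0.18 and -0.05 ± 0.18 on the log2 scale, with FDRs from 0.79 to 0.839. The difference between the androgen effects of the experiments was tested in 1 fit of all libraries: 0 of 4 members were called (1.88% of 16672 genes), by edgeR and by DESeq2, and 1 had an unadjusted p under 0.05. For MT1X the 72 h effect minus the 24 h effect was -0.36 ± 0.16 (edgeR FDR 0.133).

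**Figure D2:**
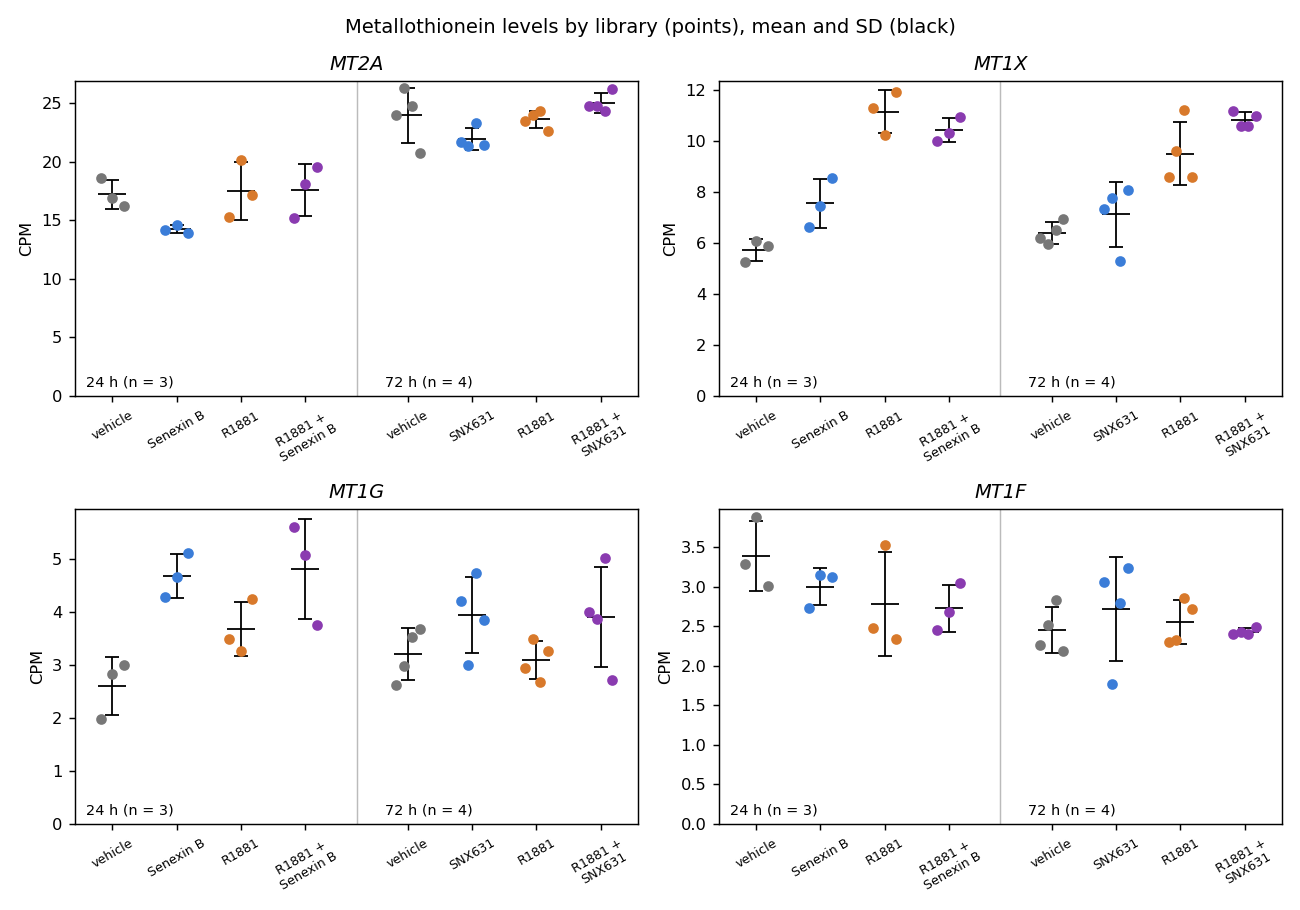
CPM of the 4 members that passed the filter (y axis, from 0) in each treatment group (x axis) of the 24 h and 72 h experiments. Coloured points are libraries, and black bars give the mean and SD of 3 or 4 libraries. For MT1X all libraries with R1881, alone or with inhibitor, lie above every library without it in the same experiment, while MT1F overlaps between neighbouring groups.

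The second comparison asked what androgen did to the members when CDK8 and CDK19 were inhibited. With Senexin B at 24 h, 0 of 4 members were called (18.9% of all genes tested), with the same count from DESeq2 and 2 members at an unadjusted p under 0.05. These were MT1X and MT2A, whose FDRs were under 0.01 at folds below the limit. MT1X stood at 6.64, 7.46 and 8.54 CPM with Senexin B and at 9.99, 10.3 and 10.9 CPM with R1881 added. The groups did not overlap, and the log2 difference was 0.47 ± 0.11 (1.38-fold, FDR 0.000759).
MT2A held 14.2, 14.6 and 13.9 CPM with Senexin B and 15.2, 18.1 and 19.5 CPM with R1881 added, a difference of 0.31 ± 0.10 (1.24-fold, FDR 0.00916). Here too every library with both agents was above every library with Senexin B alone. For MT1F and MT1G the groups overlapped, with differences of -0.13 ± 0.20 and 0.03 ± 0.17.

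With SNX631 at 72 h, MT1X rose with R1881 and was the 1 member of 4 called, beside 22% of all genes tested. It held 7.35, 7.76, 5.28 and 8.09 CPM with SNX631 and 11.2, 10.6, 10.6 and 10.99 CPM with R1881 added. All 4 libraries with both agents lay above all 4 with SNX631. The log2 fold change was 0.61 ± 0.10 (1.52-fold, FDR 2.94e-06), close to the limit. It was 0.484 and not called without SNX631 replicate 3, the lowest library of its group.
MT2A measured 21.7, 21.4, 23.3 and 21.4 CPM with SNX631 and 24.8, 24.7, 24.3 and 26.2 CPM with R1881 added. These groups did not overlap, and the difference of 0.19 ± 0.06 (1.14-fold, FDR 0.00729) was under the fold limit. MT1F and MT1G overlapped between the groups, with differences of -0.15 ± 0.17 and -0.01 ± 0.16 on the log2 scale. In both experiments the androgen difference of MT2A had an FDR under 0.01 with inhibitor present and not with R1881 alone, which by itself does not show that the effects differed.

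Whether these androgen effects differed by inhibitor was tested as an interaction. None of the 4 members was called, at 24 h (0.577% of all genes called) or at 72 h (1.19%), by edgeR or DESeq2, and 1 member had an unadjusted p under 0.05 in each. At 24 h this was MT1X, whose androgen effect was lower by 0.47 ± 0.16 with Senexin B than without (edgeR FDR 0.0906). With the counts of MT1X and the overlapping gene added up, a choice made after seeing the data, the value was -0.46 with an FDR of 0.028, still above the limit of 0.01. At 72 h it was MT2A, whose androgen effect was higher by 0.21 ± 0.09 with SNX631 (FDR 0.124), and at 24 h its interaction was 0.26 ± 0.14 (FDR 0.349). For MT1X at 72 h the interaction was 0.03 ± 0.15, with a 95% interval from -0.28 to 0.34.

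The third comparison asked what the inhibitors did without androgen. With Senexin B, MT1G rose and was the 1 of 4 members called, beside 3.79% of all genes tested. Its libraries held 1.97, 2.82 and 2.99 CPM with vehicle and 4.28, 4.64 and 5.11 CPM with Senexin B, with no overlap. The log2 fold change was 0.77 ± 0.17 (1.70-fold, FDR 0.0006), and leaving out single libraries gave 0.675 to 0.927 with the call kept each time.
MT1X and MT2A moved to opposite sides at smaller size, and neither was called. The Senexin B libraries of MT1X (6.64 to 8.54 CPM) were all above those with vehicle (5.26 to 6.07 CPM), with a difference of 0.38 ± 0.12 and an FDR of 0.0116. With the overlapping gene added to MT1X the difference was 0.363 and the FDR 0.00229, again under the fold limit. The Senexin B libraries of MT2A (13.9 to 14.6 CPM) were all below those with vehicle (16.2 to 18.6 CPM), with a difference of -0.25 ± 0.09 and an FDR of 0.0355. MT1F had a difference of -0.14 ± 0.18 with overlapping groups.

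With SNX631 alone at 72 h, 0 of 4 members were called (4.77% of all genes tested), by edgeR and by DESeq2, and 0 had an unadjusted p under 0.05. MT1G held 2.61, 2.98, 3.52 and 3.67 CPM with vehicle and 4.20, 3.00, 4.72 and 3.83 CPM with SNX631. These ranges overlapped through replicate 2 of the SNX631 group, and the difference was 0.29 ± 0.17 with a 95% interval from -0.05 to 0.64. The corresponding intervals were -0.09 to 0.39 for MT1X, -0.25 to 0.0031 for MT2A and -0.22 to 0.50 for MT1F. A p above the limit does not show that SNX631 left these genes as they were.

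The fourth comparison set R1881 with inhibitor against R1881. Here 0 of 4 members were called with Senexin B (3.12% of all genes tested) and 0 of 4 with SNX631 (4.12%), and DESeq2 gave the same counts. One member had an unadjusted p under 0.05 with Senexin B and none with SNX631. The former was MT1G, which stood at 3.49, 3.26 and 4.24 CPM with R1881 and 5.59, 5.06 and 3.75 CPM with both. Its groups overlapped, and the difference was 0.38 ± 0.18 (FDR 0.115). With SNX631 the difference of MT1G was 0.34 ± 0.17 (FDR 0.117), with 2.67 to 3.48 CPM with R1881 and 2.71 to 5.02 CPM with both. MT1X differed by -0.10 ± 0.11 with Senexin B and by 0.18 ± 0.10 with SNX631, and MT2A by 0.01 ± 0.10 and 0.08 ± 0.06. MT1F differed by -0.02 ± 0.21 and -0.07 ± 0.18. In the plot of effect sizes the 4 inhibitor differences of MT1G all lie above 0, although 1 of the 4 was called.

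**Figure D3:**
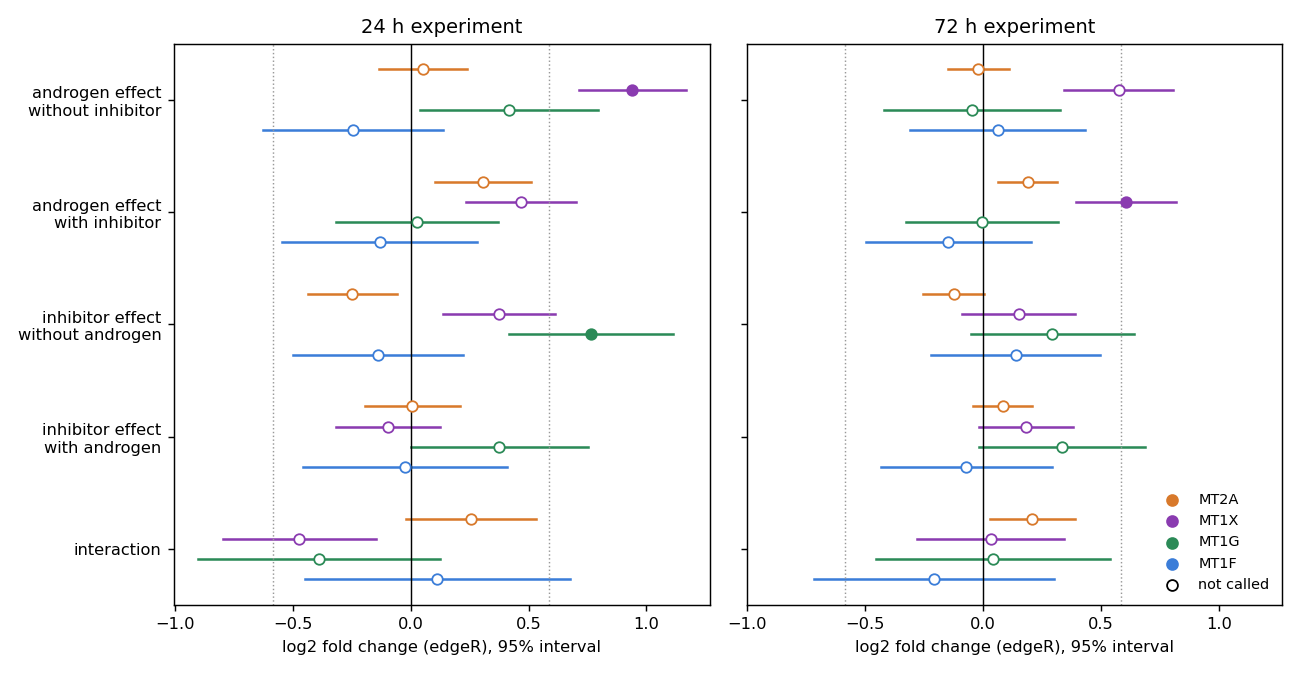
Log2 fold change with its 95% interval (x axis) for 4 members in 5 comparisons (y axis) of the 24 h experiment (left) and the 72 h experiment (right). Filled points passed both limits and open points did not, and dotted lines mark a fold change of 1.5. The 3 filled points are MT1X with R1881 at 24 h, MT1X with R1881 in the presence of SNX631, and MT1G with Senexin B.

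Across the 4 groups of the 24 h experiment, MT1X ran from R1881 (11.2 ± 0.86 CPM) over both agents (10.4 ± 0.48) and Senexin B (7.55 ± 0.95) to vehicle (5.74 ± 0.43), and only the upper pair overlapped. MT1G ran from both agents (4.80 ± 0.95) over Senexin B (4.68 ± 0.41) and R1881 (3.66 ± 0.51) to vehicle (2.59 ± 0.54). Among neighbours in this order the upper pair overlapped, and the group with both agents also overlapped R1881. For MT1X every library with R1881 stood above every library without it, whereas for MT1G the means of the groups with inhibitor lay above both means without it but the libraries were not all apart. MT2A had 17.6 ± 2.2, 17.5 ± 2.5 and 17.2 ± 1.2 CPM with both agents, R1881 and vehicle, which overlapped, and 14.2 ± 0.33 with Senexin B, which lay apart.
At 72 h, MT1X ran from both agents (10.8 ± 0.30 CPM) over R1881 (9.51 ± 1.2) and SNX631 (7.12 ± 1.3) to vehicle (6.40 ± 0.43), and the single gap lay between the groups with and without R1881. For MT2A, MT1F and MT1G all neighbours in the order of the 72 h groups overlapped. MT1F had group means from 2.73 to 3.39 CPM at 24 h and from 2.43 to 2.72 CPM at 72 h.

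The share that each member took of the metallothionein counts differed between groups. Summed over the 6 members, the level was 28.9 ± 0.78 CPM with vehicle, 29.5 ± 1.5 with Senexin B, 35.1 ± 2.4 with R1881 and 35.5 ± 2.1 with both at 24 h. It was 36.0 ± 2.0, 35.7 ± 1.2, 38.7 ± 1.9 and 42.2 ± 0.44 CPM with vehicle, SNX631, R1881 and both at 72 h. MT1X made up 19.8 ± 1.6% of member counts with vehicle and 31.9 ± 3.9% with R1881 at 24 h, and 17.9 ± 2.1% and 24.5 ± 2.0% at 72 h. MT2A made up 59.5 ± 3.8% with vehicle and 48.4 ± 2.8% with Senexin B at 24 h, where the sum hardly differed while MT1G went from 8.98 ± 2.0% to 15.9 ± 0.68%. Shares of counts depend on gene length and on the shared reads of MT1X, and were not tested.

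**Figure D4:**
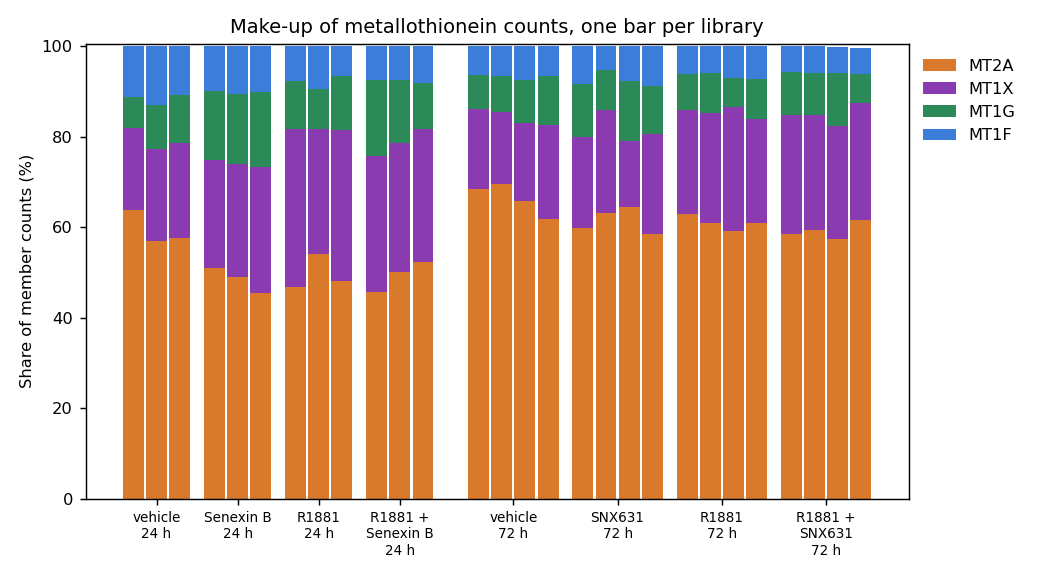
Share of the rounded counts of the 6 members taken by MT2A, MT1X, MT1G and MT1F (y axis, percent, from 0), with 1 bar for each of 28 libraries grouped by treatment (x axis). The small gap at the top of 2 bars is MT1E. MT1X takes 18.1 to 20.9% with vehicle and 27.5 to 34.8% with R1881 at 24 h.

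Among themselves the members did not move as 1 unit. Over 28 libraries (log2 CPM minus the vehicle mean of the experiment), Pearson's r was 0.378 between MT1X and MT1G, 0.236 between MT2A and MT1F and 0.16 between MT2A and MT1X. It was -0.413 between MT2A and MT1G, -0.381 between MT1X and MT1F and -0.385 between MT1F and MT1G. Within groups, r was -0.0836 for MT1X and MT1G, 0.47 for MT2A and MT1F and -0.268 for MT2A and MT1X. It was -0.447 for MT2A and MT1G, -0.0154 for MT1X and MT1F and 0.0451 for MT1F and MT1G. The values over all libraries thus hold shifts of group means. These are descriptions over libraries that share treatments, and the counts of MT1F and MT1G were as low as 22 and 21 in a library. The mean profile of the 4 members correlated most with ETS2 (r = 0.804), CYP2U1-AS1 (0.80), ZNF724 (0.797), FAM72C (0.782) and ENSG00000255292 (0.779) among 15677 genes tested in both experiments. The members themselves had lower r with that profile, at 0.648 for MT1X, 0.55 for MT2A, 0.325 for MT1G and 0.263 for MT1F. Each member is part of that profile, while the genes named before were picked as the highest of all compared. The r values of members and of those genes can therefore not be set against each other.

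The summed level of the 8 markers of other cell types was lower where R1881 was present, the groups in which MT1X was higher. It ranged from 26.9 to 30.7 CPM with vehicle, 21.6 to 23.4 with Senexin B, 17.5 to 19.4 with R1881 and 12.0 to 12.6 with both at 24 h. At 72 h it ranged from 33.6 to 36.7 CPM with vehicle, 31.1 to 33.4 with SNX631, 22.3 to 29.8 with R1881 and 16.5 to 18.8 with both. Of the 8, 3 passed the filter, and COL1A1 alone stood at 23.3 ± 1.2 CPM with vehicle at 24 h. With R1881 alone COL3A1 was called lower and VWF higher at both times, and COL1A1 was called lower at 24 h. With inhibitor alone, COL1A1 was called lower (-1.05 with Senexin B, -0.62 with SNX631) and COL3A1 higher (1.22 and 1.49), opposite moves that the sum does not show. The other 5 had at most 3 counts and KRT5 was at 0. Among them DCN, a fibroblast marker like COL1A1, reached at most 1 count in a library. PECAM1, an endothelial marker like VWF, reached at most 2. The part of these markers in the results was not tested. In bulk RNA, fewer cells of a type and less RNA per cell cannot be told apart.

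The metal sensor and the other genes of metal handling were read from the same fits. MTF1, the transcription factor of the metal response, was not called in any comparison, and its group means lay between 32.6 and 41.1 CPM. With R1881 in the presence of inhibitor its differences were 0.23 ± 0.07 (FDR 0.0071) at 24 h and 0.18 ± 0.05 (FDR 0.00306) at 72 h, and with R1881 alone 0.00 ± 0.07 and 0.02 ± 0.05. SLC30A1, the zinc exporter of the plasma membrane that is itself a known MTF1 target, was not called either, with differences from 0.07 to 0.17 over the 8 androgen and inhibitor effects. Of the 7 genes of the metal sensor and cysteine redox list, 1 was called higher and none lower with R1881 at either time (14.3%, beside 19 and 19.8% of all genes), and 1 higher and 1 lower with R1881 in the presence of inhibitor (28.6%, beside 18.9 and 22%). The gene that rose was GSR, glutathione reductase, by 1.04 ± 0.03 at 24 h and 1.05 ± 0.03 at 72 h. SQSTM1, the autophagy receptor p62, fell by 0.59 ± 0.03 with R1881 and Senexin B against Senexin B and by 0.64 ± 0.04 with R1881 and SNX631 against SNX631. With R1881 alone its differences were -0.51 ± 0.03 at 24 h (FDR 2.05e-15) and -0.35 ± 0.04 at 72 h (FDR 5.11e-11), under the fold limit.

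Zinc carriers were called in both directions. Of 14 importers of the SLC39A family, 11 were tested, and 2 were called higher with R1881 at 24 h, 2 with R1881 at 72 h and none lower. SLC39A10, a plasma membrane importer, rose by 0.69 ± 0.04 at 24 h, from 73.0 ± 2.6 to 117.6 ± 4.0 CPM, and by 0.77 ± 0.04 at 72 h. SLC39A6, its close relative, rose by 0.76 ± 0.03 at 24 h, and SLC39A7, which releases zinc from the endoplasmic reticulum, by 0.67 ± 0.04 at 72 h. Under the fold limit, SLC39A6 also rose at 72 h (0.55 ± 0.03, edgeR FDR 1.08e-20) and SLC39A7 at 24 h (0.33 ± 0.06, edgeR FDR 6.32e-06). The share called, 18.2% at each time, was near the 19 and 19.8% of all genes. SLC39A8, an importer of zinc, manganese and iron, was the 1 called with SNX631 alone (9.09%, beside 4.77% of all genes) and rose by 0.67 ± 0.04. With Senexin B alone it measured 0.57 ± 0.04, under the fold limit, and it is named after its values were seen.
Of 10 exporters of the SLC30A family, 7 were tested. With R1881 alone 2 were called lower at 24 h (28.6%, beside 19% of all genes). At 72 h 2 were called lower and 1 higher (42.9%, beside 19.8%). With inhibitor alone 1 was called lower in each experiment (14.3%, beside 3.79% with Senexin B and 4.77% with SNX631). SLC30A10, which is known chiefly as a manganese exporter, was called lower in all 8 androgen and inhibitor effects. At 24 h it measured 10.3 ± 0.28 CPM with vehicle, 5.34 ± 0.62 with Senexin B, 2.76 ± 0.24 with R1881 and 1.03 ± 0.39 with both. At 72 h it measured 10.5 ± 0.49 CPM with vehicle, 4.93 ± 0.30 with SNX631, 1.36 ± 0.31 with R1881 and 0.69 ± 0.26 with both. Its log2 fold changes were -1.89 ± 0.16 with R1881 and -0.94 ± 0.12 with Senexin B at 24 h, and -2.92 ± 0.18 with R1881 and -1.09 ± 0.11 with SNX631 at 72 h. SLC30A4, a vesicular zinc carrier and the exporter with 916.6 ± 15 CPM with vehicle at 24 h, fell by 0.66 ± 0.03 with R1881 at 24 h and by 0.77 ± 0.02 at 72 h. SLC30A7, a carrier of the Golgi, was the 1 exporter called higher, by 0.67 ± 0.05 with R1881 at 72 h, and is also named after its values were seen. Inhibitor without androgen gave SLC30A4 values of -0.01 ± 0.03 (Senexin B) and -0.01 ± 0.02 (SNX631).

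**Figure D5:**
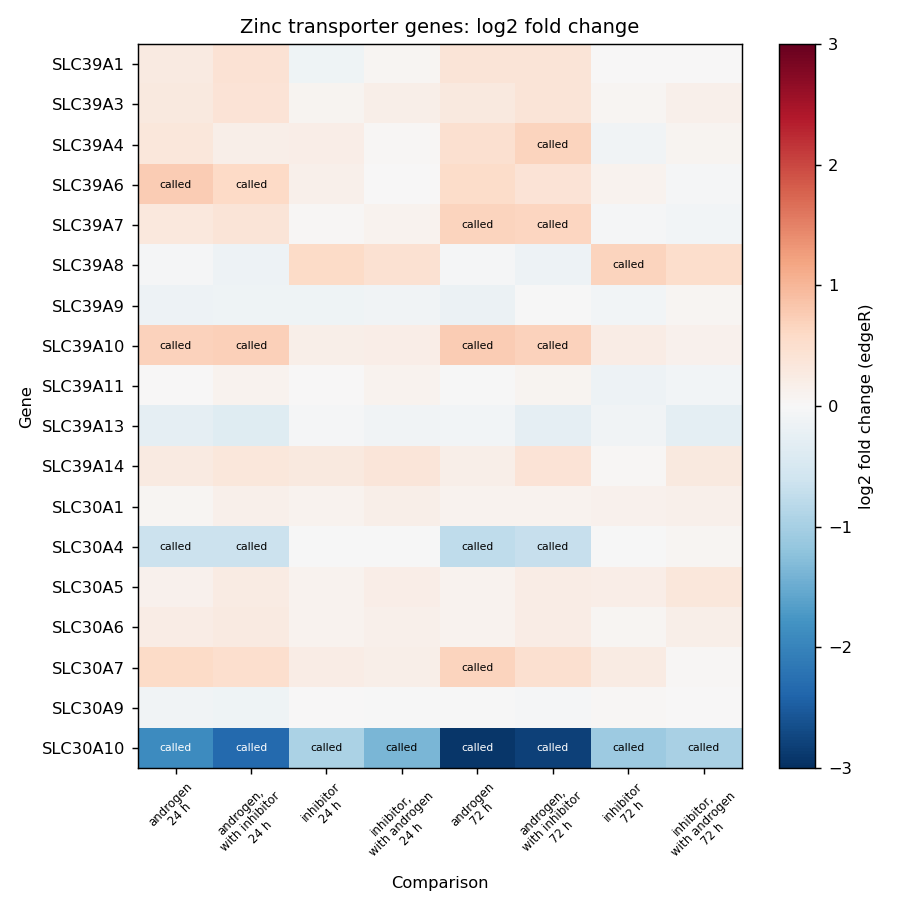
Log2 fold change (colour) of the 11 SLC39A importers and 7 SLC30A exporters that passed the filter (y axis) in the 4 androgen and inhibitor effects of each experiment (x axis), with the word called where both limits were passed. SLC30A10 is lower and called in all 8, SLC39A10 is higher with R1881 in all 4 androgen effects, and SLC30A1 stays near 0.

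Copper and iron genes were read in the same way. Of 11 copper genes, edgeR called 0 with R1881 alone at 24 h (beside 19% of all genes), where 5 had an unadjusted p under 0.05. At 72 h it called 1 (9.09%, beside 19.8%), SLC31A2, a carrier related to the main copper importer, which rose by 0.75 ± 0.11. With Senexin B alone SLC31A2 fell by 0.63 ± 0.13 and was the 1 copper gene called (9.09%, beside 3.79% of all genes). Of 8 iron genes, SLC40A1, the iron exporter ferroportin, was the 1 called with R1881 at each time (12.5%, beside 19 and 19.8% of all genes). It fell by 0.87 ± 0.27 at 24 h and 1.08 ± 0.23 at 72 h. Of 12 heat shock genes, which share metal inducers with the metallothioneins, 11 were tested at 24 h and 12 at 72 h, and edgeR called 0 in any comparison, beside 0.577 to 22% of all genes. At an unadjusted p under 0.05 there were 7 of 11 with R1881 alone at 24 h and 10 of 12 at 72 h, and the largest log2 difference in either direction was 0.433 and 0.346. The shares of all genes given here belong to the limits of a call. They cannot be set beside counts at an unadjusted p, for the heat shock or the copper genes.

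Some genes known to be induced by androgens as well as by glucocorticoids were called with R1881 in both experiments. The list was drawn up with earlier results of these data known, so its share of calls is a description and no test. Of 9 such genes 8 were tested, and 4 were called higher and none lower with R1881 at 24 h (50%, beside 19% of all genes), and 5 higher and 1 lower at 72 h (75%, beside 19.8%). FKBP5 rose by 3.65 ± 0.05 and 3.86 ± 0.03, ZBTB16 by 2.05 ± 0.04 and 2.61 ± 0.05, PER1 by 1.61 ± 0.09 and 1.92 ± 0.07, and CRISPLD2 by 1.31 ± 0.07 and 1.54 ± 0.07 on the log2 scale at 24 and 72 h. The fifth gene called higher at 72 h was SGK1 (1.83 ± 0.19) and the 1 called lower was DUSP1 (-0.61 ± 0.06), both named after their values were seen. TSC22D3 and KLF9, also named after that, were not called with R1881 alone. TSC22D3 measured -0.25 ± 0.08 at 24 h and 0.17 ± 0.05 at 72 h, and KLF9 -0.13 ± 0.04 and -0.24 ± 0.04. NR3C1, the glucocorticoid receptor gene, did not pass the filter, and its highest value in any library was 0.64 CPM. MT2A, a glucocorticoid target by background knowledge, measured 0.05 ± 0.09 and -0.02 ± 0.06 in the same contrasts.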

How the data were processed

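Total RNA of LNCaP cells was sequenced in 28 libraries of 8 groups made with a directional kit. The authors deposited expected counts per gene, not scaled to depth, in 1 table of 61815 genes and 2 further entries with 0 counts, which were left out. Per the submitters' processing notes, cutadapt 2.8, STAR 2.7.2b, featureCounts of Subread 2.0.3 and FastQC were used, with builds GRCh38.p13 and GRCm39 named. The annotation release and the use of strand in counting are not given in the sources used here. Of the deposited values above 0, 16.9% had a fractional part, as arises when a read is shared out over several places or genes, and this bears on a family of near-identical genes. The fractional part came to 9.48 of 3056 counts for MT1X, 4.57 of 7422 for MT2A and 1.5 of 4.5 for MT1E.

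Values were rounded to whole counts and fitted per experiment with the quasi-likelihood test of edgeR 4.0.16 (R 4.3.3, TMM). The filterByExpr limits were 10 for the count and 15 for the total. Adjustment was by Benjamini-Hochberg over all genes tested. Genes were called at FDR under 0.01 together with a fold change above 1.5, which the study also used. CPM used TMM sizes within an experiment, and correlations used log2 CPM with a prior count of 2. SEs are Wald SEs and intervals cover 95%. Totals were 9846595 to 33809419 counts, and a count of 0 was read as up to 3 counts. Replicates differed by more than sampling noise, but by little. The chi-square per degree of freedom was 1.2 to 2.48 over 36 pairs of libraries, where sampling noise alone gives about 1. The common biological coefficient of variation from edgeR was 2.72% at 24 h and 2.38% at 72 h. Whether this small spread reflects separate cultures was not tested.

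All 6 members are named in every comparison. From each related list, at most 4 genes called the same way in at least 2 of the 8 androgen and inhibitor effects are named, those with the largest mean change, together with MTF1, SLC30A1 and NR3C1, and the 5 genes most like the mean member profile. Members and lists were chosen with earlier results of these data known. Gene positions and exon lengths are from GENCODE 29, matched by identifier without version. Promoters are from RefSeq.

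DESeq2 1.42.0, other scalings, filters and limits, a replicate block, a joint fit and leaving out each library were alternatives. Adding up MT1X and the gene that overlaps it was chosen after seeing the data. On simulated data for the androgen effect, edgeR recovered 97% (24 h, 15948 genes) and 95% (72 h, 16074 genes) of 2-fold changes. It recovered 100% of 4-fold changes. These shares are over 100 changed genes at each fold and were not computed for the members. Recovery of changes under 2-fold, or at counts as low as those of MT1F and MT1G, is not given. The shares therefore do not show how often a change in a member would be missed. Figures were drawn with matplotlib 3.10.9.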

Additional observations from a re-analysis of the deposited data

Results flagged for a closer look

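In 16 sets of 4 libraries at 72 h (4 members in 4 groups), 1 held a library that stood apart from the others by Dixon's test. MT2A in SNX631 replicate 3 measured 23.3 CPM, against 21.4 to 21.7 CPM in the other 3 libraries of the group, and the gap took 0.834 of the range, just above the critical value for 4 libraries. Chance alone flags about 1 in 20 such sets. The same library had the lowest MT1X level of its group, 5.28 CPM.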

How the results depend on the processing

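The counts of called members stayed within 1.5 times of the reported ones except as follows. With the FDR limit at 0.05 and none on the fold, 2 members were called for androgen with Senexin B, 3 for Senexin B alone, 1 for androgen alone at 72 h and 2 for androgen with SNX631. More of all genes pass this looser limit too. The shares of all genes given above belong to the stricter limit and cannot be set beside these counts. With library totals as the only scaling the count for androgen with SNX631 was 0, since MT1X came to 0.498. That scaling shifted the median of all genes by -0.102 and -0.108 in the androgen effects without and with SNX631, and the higher share of calls from 48.9 to 38% and from 45.7 to 35%. Without a filter on low counts 1 member (MT1X, 0.593) was called for androgen alone at 72 h. Leaving out single libraries gave 0 to 1 called members for androgen alone at 72 h, and 0 to 1 for androgen with SNX631, with MT1X at 0.484 without SNX631 replicate 3.

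Differences near 0 changed sign, none of them called. Under library totals these were MT2A with R1881 at 24 h (-0.0261), MT1G with R1881 beside Senexin B (-0.0468), MT2A with Senexin B beside R1881 (-0.0281, and -0.00333 with a filter of 1 CPM) and MT1F with R1881 at 72 h (-0.0397). MT1G with R1881 beside SNX631 was 0.024 without a filter and 0.00802 in the fit of 28 libraries. With single libraries left out the ranges that crossed 0 were as follows. For MT1F they were -0.147 to 0.175 (Senexin B beside R1881) and -0.0159 to 0.306 (interaction, 24 h). For MT1G they were -0.111 to 0.194 (R1881 beside Senexin B), -0.162 to 0.135 (R1881 beside SNX631), -0.13 to 0.0262 (R1881, 72 h) and -0.113 to 0.183 (interaction, 72 h). For MT1X the range was -0.0884 to 0.124 (interaction, 72 h). For MT2A they were -0.0491 to 0.147 (R1881, 24 h), -0.0878 to 0.0283 (R1881, 72 h), -0.0872 to 0.11 (Senexin B beside R1881) and -0.16 to 0.0367 (difference between experiments). The cause of these changes was not tested.

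Same-numbered libraries did not deviate together (r from -0.0145 to 0.0666 over 18 pairs at 24 h and from -0.0677 to 0.073 over 24 pairs at 72 h), so the numbers were not read as pairs. Even so, 8 of 12 libraries at 24 h correlated best with a library of their own number, and 2 of 16 at 72 h. In the fit with a replicate block the counts of called members were 1, 0, 1, 0 and 0 at 24 h and 0, 1, 0, 0 and 0 at 72 h, as reported. DESeq2 size factors, the DESeq2 test, counts cut down to whole numbers and the sum of MT1X with the overlapping gene changed no call of a member. Depth limits MT1F and MT1G, with 21 to 106 counts in a library, and MT1E and MT1M, which could not be tested.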
